A study of Homo sapiens with 6 samples.

Results

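The miR-15/16 family is a group of microRNAs (miRNAs) that share one seed, the stretch at bases 2 to 8 with which a miRNA recognises its target mRNAs. It was taken here as miR-15a-5p, miR-15b-5p, miR-16-5p, miR-195-5p and miR-497-5p, found by their probe names, which made 5 of the 798 miRNA probes of the panel. The cells were A549, an established line of human lung adenocarcinoma, and 6 RNA samples were profiled on an nCounter miRNA panel (human v3), where a barcoded probe is counted for each target molecule without amplification. A scramble siRNA was given to the cells of 3 samples (siSCR) and an APE1 siRNA to those of the other 3 (siAPE1), APE1 being the main enzyme that cuts DNA at abasic sites in base excision repair. Both groups received 100 pmol of siRNA and were collected after 72 h, and 100 ng of total RNA entered each assay. The knockdown was transient and was made in 1 cell line. The panel carried 5 housekeeping mRNAs besides the miRNAs and no APEX1 probe, so neither the depletion of APE1 nor a marker of A549 identity was measured in these libraries.

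The members of this family repress mRNAs of the cell cycle and of survival, among them those of the D-type cyclins and of BCL2. The hairpins of miR-15a and miR-16-1 lie in a region of chromosome 13 that is often lost in chronic lymphocytic leukaemia, which made them an early example of tumor-suppressor miRNAs. miR-16-5p is abundant in many tissues and is a common reference for RT-qPCR of miRNAs, and the study used it as the reference of its own RT-qPCR assays of a miRNA signature. The question of the comparison was therefore whether the family, and above all its reference member, stayed level when APE1 was depleted.

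The mature sequences are shown because the seed, in capitals, defines the family and because the bases after it are what tells the members apart. They are RefSeq sequences of GRCh38.p14, written 5′ to 3′.
hsa-miR-15a-5p: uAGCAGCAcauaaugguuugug
hsa-miR-15b-5p: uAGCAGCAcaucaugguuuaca
hsa-miR-16-5p: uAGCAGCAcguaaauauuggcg
hsa-miR-195-5p: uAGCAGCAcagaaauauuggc
hsa-miR-497-5p: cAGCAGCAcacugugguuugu
hsa-miR-424-5p: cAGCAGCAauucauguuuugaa
hsa-miR-503-5p: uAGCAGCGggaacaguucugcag
The last pair is not among the 5 members but was included as relatives. Of the 688 panel probes whose names matched a RefSeq mature sequence, 6 carried the seed AGCAGCA, namely the 5 members and miR-424-5p. miR-503-5p carried AGCAGCG, which shares the first 6 bases of the seed and made it the seventh probe of the extended group. Compared base by base from the 5′ end, miR-16-5p and miR-195-5p were equal at 19 of 21 positions, miR-15a-5p and miR-15b-5p at 18 of 22, miR-15a-5p and miR-16-5p at 16 of 22, and miR-15b-5p and miR-16-5p at 14 of 22. The further relatives miR-646 and miR-6838-5p and the other arms of the members' hairpins had no probe under those names on the panel.

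The family is encoded in pairs of hairpins. MIR15A (chr13:50049119-50049201) and MIR16-1 (chr13:50048973-50049061) lie on the minus strand, 57 bases apart, within the long noncoding RNA gene DLEU2. MIR15B (chr3:160404588-160404685) and MIR16-2 (chr3:160404745-160404825) lie on the plus strand, 59 bases apart, within SMC4, a gene of the condensin complex, where the readthrough gene TRIM59-IFT80 is also annotated. MIR195 (chr17:7017615-7017701) and MIR497 (chr17:7017911-7018022) lie 209 bases apart in MIR497HG, and MIR424 (chrX:134546614-134546711) and MIR503 (chrX:134546328-134546398) lie 215 bases apart, the latter within MIR503HG. The hairpins of miR-16 are shown because both give rise to the same mature miRNA, in capitals.
mir-16-1 hairpin: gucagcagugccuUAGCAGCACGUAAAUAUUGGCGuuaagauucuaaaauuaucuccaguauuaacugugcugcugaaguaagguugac
mir-16-2 hairpin: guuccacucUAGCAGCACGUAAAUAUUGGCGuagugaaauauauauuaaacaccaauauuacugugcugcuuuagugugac
A count of miR-16-5p is therefore the sum of both loci, and the panel cannot tell them apart.

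The libraries held 312152 to 488407 counts in total, and each of the 3 siSCR libraries held more than each siAPE1 library. Each level is a scaled count, for which the raw count was divided by a factor from the positive controls and the housekeeping mRNAs of the same library. The positive-control part nearly cancels in that factor, which was 1.1285 in siSCR replicate 1 against 1.12896 from the housekeeping mRNAs alone. This scale is thus in effect that of the housekeeping mRNAs. A miRNA was tested where its raw count exceeded a background limit set 2 SD above the average of the 8 negative controls of that library, in 3 or more of the 6 libraries, which 152 of the 798 probes did. The study calls the replicates biological, while the labels name no separate cultures, so the spread behind each p-value is that between these RNA samples. In the edgeR fits it is mostly pooled over probes and is not the spread of each miRNA alone. Fewer cells of a kind and less RNA per cell cannot be told apart in bulk RNA.

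In A549 the 3 members miR-15a-5p, miR-15b-5p and miR-16-5p were expressed well above background, and neither miR-195-5p nor miR-497-5p was detected. With the scaling by controls and housekeeping mRNAs, miR-16-5p, the reference, was level between the groups within its error (log2 fold change 0.07 ± 0.18 SE), and miR-15a-5p (−0.25 ± 0.18) and miR-15b-5p (−0.15 ± 0.18) did not pass the test either. The related miR-424-5p fell and miR-503-5p rose. A log2 fold change here is the edgeR estimate for siAPE1 over siSCR, and a miRNA was called at an adjusted p of 0.1.

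miR-16-5p had raw counts of 4405, 5325 and 4524 in siSCR replicates 1 to 3 and of 3915, 4439 and 4027 in siAPE1. After scaling these became 3903, 3971 and 5119 in siSCR and 4088, 4649 and 4926 in siAPE1. The groups overlapped, and the highest and the lowest of the 6 libraries were both siSCR. The 95% interval of the log2 fold change ran from −0.27 to 0.42 (edgeR adjusted p = 0.756). On this scale, with 3 libraries per group, a moderate change in either direction was thus not detectable. The width depends on the scale as well: its SE, pooled over probes, was 0.18 here and 0.07 with TMM on the same libraries. Measured directly against the housekeeping mRNAs of the same library, the log2 ratio of miR-16-5p was −1.72 ± 0.22 in siSCR and −1.61 ± 0.14 in siAPE1 (mean ± SD, n = 3 per group), a difference of 0.11 ± 0.15 SE (exact two-sided permutation test, p = 0.6). The ratio uses the same mRNAs as the scaling and is no second line of evidence.

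miR-15a-5p, whose hairpin lies beside that of miR-16-1, had scaled counts of 2619, 2859 and 2874 in siSCR and of 1830, 2371 and 2834 in siAPE1. The siAPE1 libraries were the more spread, and replicate 3 lay within the siSCR range. The 95% interval of its log2 fold change was −0.60 to 0.11 (edgeR adjusted p = 0.231). Without siAPE1 replicate 3 the value was −0.41 and passed the test (edgeR adjusted p = 0.0209), while the adjusted p over all alternatives ranged from 6.62e-06 to 0.736.

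miR-15b-5p, from the chromosome 3 pair, had scaled counts of 4808, 5066 and 5481 in siSCR and 3967, 4476 and 5436 in siAPE1. Its groups overlapped as well, again through siAPE1 replicate 3. The interval was −0.49 to 0.20 (edgeR adjusted p = 0.475). Thus 0 of the 3 tested members were called by edgeR, and 0 of 3 had an unadjusted p under 0.05, whereas 60.5% of the 152 tested miRNAs were called, 15 of them higher (9.87%) and 77 lower (50.7%). The groups of all 3 members overlapped, while 59.9% of the tested miRNAs had groups that did not.

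**Figure D1:**
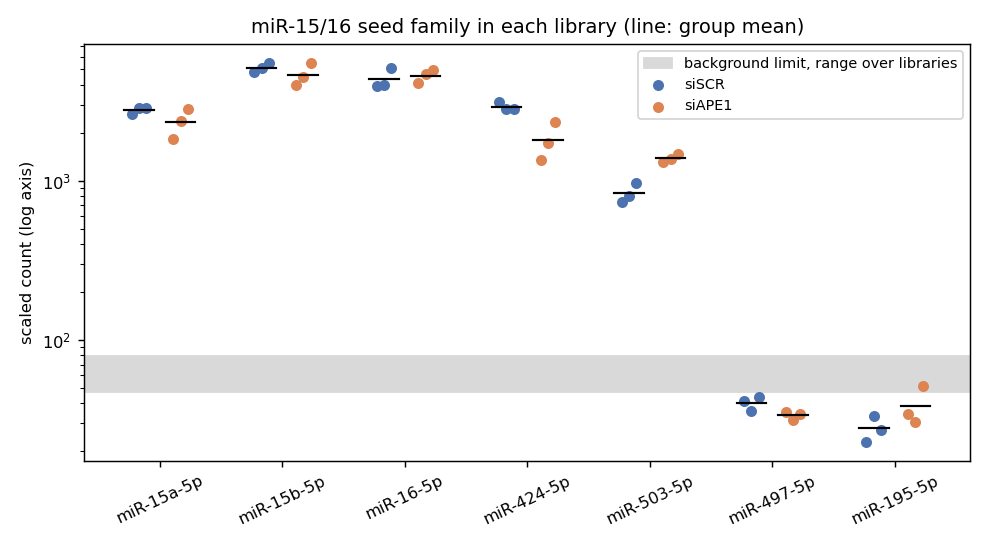
Scaled counts (log axis) of the 5 members and of miR-424-5p and miR-503-5p in each library, siSCR in blue and siAPE1 in orange, with replicates 1 to 3 from left to right and a line at the group mean. The grey band is the range over libraries of the background limit. miR-15a-5p, miR-15b-5p and miR-16-5p overlap between the groups, miR-424-5p and miR-503-5p do not, and miR-195-5p and miR-497-5p lie within or below the band.

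miR-195-5p and miR-497-5p, which are encoded together on chromosome 17, stayed below the background limit. miR-195-5p had raw counts of 26, 45 and 24 in siSCR and 33, 29 and 42 in siAPE1, where the negative controls averaged 24.5 to 31.25 counts. miR-497-5p had raw counts of 47, 48 and 39 in siSCR and 34, 30 and 28 in siAPE1. These were 1.49 to 1.92 times the negative-control mean in siSCR and 1.02 to 1.09 times in siAPE1. Neither exceeded the background limit of 53.1 to 75.8 counts in any library, and in each library at least 1 of the 8 negative controls reached the count of each. These counts set only an upper bound on both miRNAs at this depth, and no fold change was drawn from them. The miR-195-5p probe stayed there beside a miR-16-5p count of 3915 to 5325, although the mature sequences are equal at 19 of 21 positions.

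The relatives encoded on the X chromosome separated the groups in opposite directions. miR-424-5p, which carries the full family seed, had scaled counts of 3114, 2814 and 2819 in siSCR and of 1348, 1731 and 2325 in siAPE1. miR-503-5p, which differs in the last seed base, had 736, 804 and 972 in siSCR and 1302, 1373 and 1470 in siAPE1. All siAPE1 libraries were below all siSCR libraries for the former and above them for the latter, as they were below for 52.6% and above for 7.24% of the tested miRNAs. miR-424-5p fell by 0.70 ± 0.18 on the log2 scale (edgeR adjusted p = 0.000529) and miR-503-5p rose by 0.72 ± 0.18 (edgeR adjusted p = 0.000203), and both calls and directions held under the 20 alternatives that did not use another reference miRNA. With miR-191-5p as the only scale, where 84.1% of the other tested miRNAs were called, miR-424-5p was called higher instead (0.26, edgeR adjusted p = 0.0390).

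Because the total of the miRNA counts differed between the groups, the same members were also expressed as a share of it. miR-16-5p made up 1.64%, 1.61% and 1.76% of the miRNA counts in siSCR and 2.01%, 2.10% and 2.05% in siAPE1, so that on this scale its groups were apart. A difference there is not particular to miR-16-5p, since edgeR called 63.8% of the tested miRNAs with the total miRNA count as the scale. How many had groups apart on it was not counted. The share of miR-15a-5p was 0.988% to 1.16% in siSCR and 0.899% to 1.18% in siAPE1, and that of miR-15b-5p 1.88% to 2.06% and 1.95% to 2.26%, both with overlap. The 5 members together held 4.77% ± 0.10 of the miRNA counts in siSCR and 5.21% ± 0.32 in siAPE1 (mean ± SD, n = 3 per group). In scaled counts the sum of miR-15a-5p, miR-15b-5p and miR-16-5p was 12233 ± 1111 in siSCR and 11525 ± 1656 in siAPE1, a difference below the SD of either group. The direction of the family total thus depended on what the counts were set against.

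The same dependence held for each member under other library scales. The log2 fold change of miR-16-5p was 0.30 with the total miRNA count (edgeR adjusted p = 0.00377), 0.44 with TMM (edgeR adjusted p = 0.000222), which centres the tested miRNAs on themselves, and −0.33 with the positive controls alone (edgeR adjusted p = 0.0280). miR-15b-5p was called lower with the positive controls alone (−0.58, edgeR adjusted p = 0.000145) and higher with TMM (0.21, edgeR adjusted p = 0.0256), where 61.2% of the tested miRNAs were called, 30.9% higher and 30.3% lower. miR-15a-5p was at −0.68 and 0.10 on these scales (edgeR adjusted p = 6.62e-06 and 0.357). With the positive controls alone 88.2% of the tested miRNAs were called, 6 higher and 128 lower. The total miRNA count gave calls for 63.8%, 32 higher and 65 lower. DESeq2 with its own size factors called 2 of the 3 members, miR-15b-5p at 0.20 (DESeq2 adjusted p = 0.0176) and miR-16-5p at 0.43 (DESeq2 adjusted p = 1.37e-07), both higher, where 52% of the tested miRNAs were called, 25.7% higher and 26.3% lower.

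A change of scale moves all miRNAs by nearly the same amount, so each member was also set against the median of the 152 tested miRNAs. Their median log2 fold change was −0.34 with the scaling used throughout, −0.75 with the positive controls alone and 0.02 with TMM. Relative to that median miR-16-5p was at 0.41, 0.42 and 0.42 on these 3 scales, miR-15b-5p at 0.19, 0.17 and 0.18, and miR-15a-5p at 0.09, 0.06 and 0.07. All 3 lay above the median of the tested miRNAs, which says nothing of the 646 probes that were not tested.

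**Figure D2:**
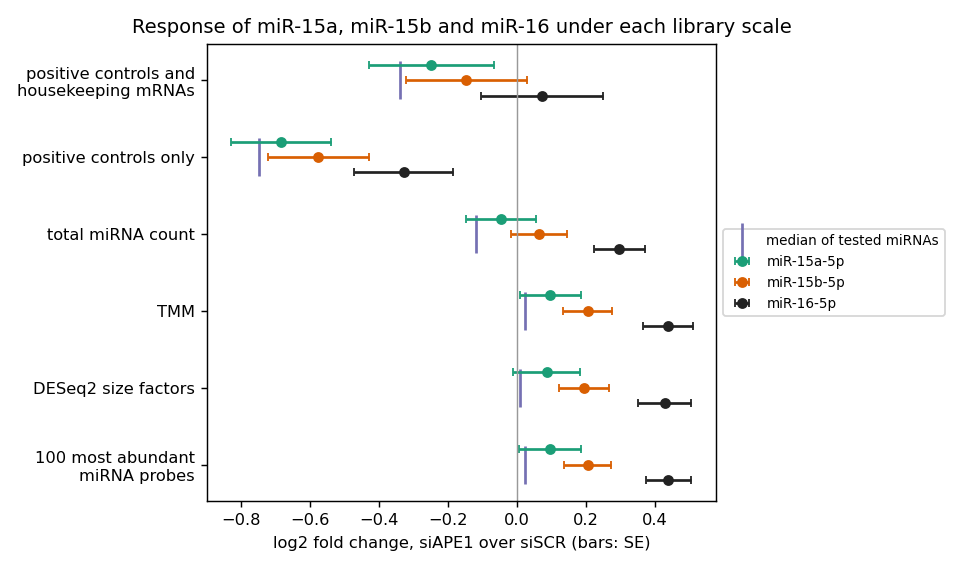
Log2 fold change of siAPE1 over siSCR (points, with SE as bars) for miR-15a-5p, miR-15b-5p and miR-16-5p under 6 library scales, with the median of all tested miRNAs as a vertical tick. miR-16-5p runs from −0.33 with the positive controls alone to 0.44 with TMM, and the 3 members and the median shift together.

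Ratios between family members within a library need no library scale at all. The log2 ratio of miR-15a-5p to miR-16-5p was −0.58, −0.47 and −0.83 in siSCR and −1.16, −0.97 and −0.80 in siAPE1, and the groups overlapped by a single library on each side. The difference was −0.35 ± 0.15 SE (exact two-sided permutation test, p = 0.2). The log2 ratio of miR-15b-5p to miR-16-5p went from 0.25 ± 0.13 to 0.01 ± 0.11 (mean ± SD, n = 3 per group), a difference of −0.24 ± 0.10 (exact permutation test, p = 0.2). miR-15a-5p against miR-15b-5p differed least, from −0.88 ± 0.05 to −0.99 ± 0.11, by −0.11 ± 0.07 (exact permutation test, p = 0.2).

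The ratios that involved the X chromosome relatives all separated the groups. The log2 ratio of miR-16-5p to miR-503-5p was 2.41, 2.30 and 2.40 in siSCR and 1.65, 1.76 and 1.74 in siAPE1, a difference of −0.65 ± 0.05, the smallest SE of these ratios (exact permutation test, p = 0.1). That of miR-16-5p to miR-424-5p was 0.33, 0.50 and 0.86 in siSCR and 1.60, 1.43 and 1.08 in siAPE1, a difference of 0.81 ± 0.22 (exact permutation test, p = 0.1). For miR-424-5p over miR-503-5p, the neighbours on the X chromosome, the ratio went from 1.81 ± 0.27 to 0.35 ± 0.31 (mean ± SD, n = 3 per group), a difference of −1.46 ± 0.24. Of the 10 ratios among the 5 tested miRNAs, 7 had groups that did not overlap, against 63.4% of all 11476 pairs of tested miRNAs. The smallest p that 3 against 3 allows is 0.1, which the exact permutation test gave for these 7 (0.143 after adjustment over the 10 ratios).

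**Figure D3:**
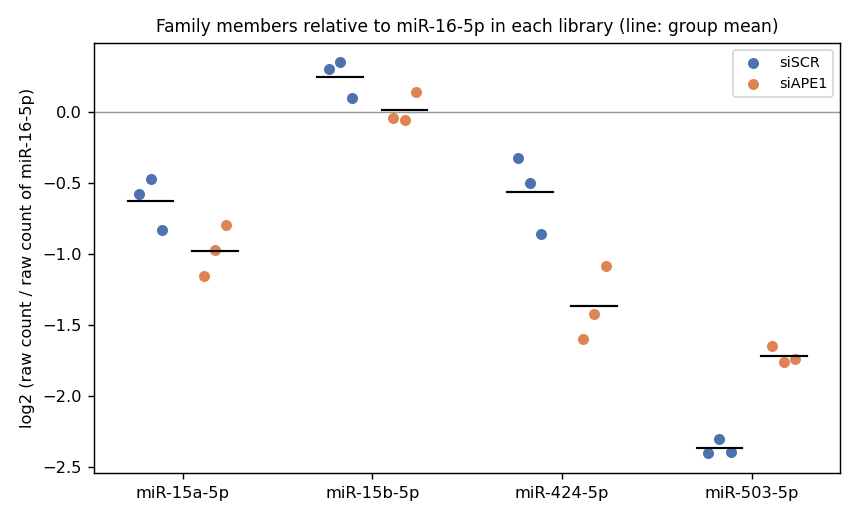
Log2 ratio of the raw count of miR-15a-5p, miR-15b-5p, miR-424-5p and miR-503-5p to that of miR-16-5p in each library, siSCR in blue and siAPE1 in orange, with a line at the group mean. The ratios of miR-15a-5p and miR-15b-5p overlap between the groups, those of miR-424-5p and miR-503-5p do not.

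Levels were not ranked between members. In raw counts miR-15b-5p exceeded miR-16-5p in all 3 siSCR libraries, with 5426, 6794 and 4844 against 4405, 5325 and 4524, but was the lower one in siAPE1 replicates 1 and 2 (3799 and 4274 against 3915 and 4439). In the processed table deposited with the raw counts each probe had been multiplied by a constant, 0.765 for miR-15b-5p and 1.16 for miR-16-5p, and a fixed amount taken off. There miR-16-5p was the higher one in all 6 libraries (5084, 6153 and 5223 against 4128, 5175 and 3683 in siSCR). The order of these neighbours therefore differs between the deposited tables. The constants were not particular to a probe, as 0.765 recurred for miR-25-3p and 1.16 for miR-374a-5p. They were nearly proportional to the inverse of the library factors used here, so the order in the processed table was not read as one of levels. What the constants stand for is not given in the sources used here, and a probe's constant was the same in both groups.

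The use of miR-16-5p as a reference was examined by repeating the fit with its raw count as the only library scale, as a reference in RT-qPCR is used. On this scale miR-15a-5p was at −0.35 ± 0.11 SE (edgeR adjusted p = 0.00332) and miR-15b-5p at −0.24 ± 0.10 (edgeR adjusted p = 0.0230), so that both were called lower than their own family member, where 78.8% of the 151 other tested miRNAs were called, 68.9% lower and 9.93% higher. These p-values take the reference as free of error and use a spread that edgeR pools over probes, and the exact permutation test of the same ratios gave p = 0.2 for both.

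The signature that the RT-qPCR assays addressed was on the panel with all of its 13 miRNAs. Of these 9 were tested, while miR-4488, miR-200c-3p, miR-92b-3p and miR-33a-5p were not. The signature was chosen on these samples, so that its calls are not independent evidence of a direction. With miR-16-5p as the only scale, all 9 were called, miR-1246 higher and 8 lower, as they were with the scaling by controls and housekeeping mRNAs. Calls were common on both scales, at 78.8% and 60.5% of all tested miRNAs. Of the 9, 3 were above the background limit in 1 group only: miR-1246 in no siSCR library, and miR-130b-3p and miR-146a-5p in no siAPE1 library. They passed the filter through the group in which they were high, so their calls and folds support nothing. miR-660-5p and miR-543 exceeded the limit in 3 siSCR libraries and 1 siAPE1 library, and miR-376c-3p in 3 and 2. These too passed the filter only with their siSCR libraries, so their calls and folds are no support either. Only miR-24-3p, miR-183-5p and miR-218-5p exceeded the limit in all 6 libraries. The exchange of the scale moved each of the 9 log2 fold changes down by a similar amount, 0.08 to 0.10. miR-24-3p went from −0.99 ± 0.18 SE to −1.07 ± 0.10, miR-183-5p from −0.82 ± 0.18 to −0.91 ± 0.14, and miR-218-5p from −1.25 ± 0.18 to −1.34 ± 0.13. For miR-130b-3p the fitted value was −0.39 (edgeR adjusted p = 0.0728) and −0.48 (edgeR adjusted p = 0.0217), and for miR-1246 it was 0.99 and 0.92. These fits hold the background in them, and with the negative-control mean subtracted the values were −1.09 for miR-130b-3p and 1.31 for miR-1246 on the scale of controls and housekeeping mRNAs. With TMM 6 of the 9 were called, 1 higher and 5 lower, where 61.2% of all tested miRNAs were called. The call of miR-130b-3p was lost under 10 of 19 alternatives, and those of miR-543 and miR-660-5p under 3 of 19 each.

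Per library, the log2 ratio of miR-24-3p to miR-16-5p was −0.62, −0.46 and −0.67 in siSCR and −1.69, −1.76 and −1.52 in siAPE1. That of miR-218-5p was −4.05, −3.86 and −4.17 in siSCR and −5.49, −5.36 and −5.23 in siAPE1. Both pairs of groups were far apart compared with the spread within them. For miR-130b-3p the ratio was −6.22, −5.87 and −5.82 in siSCR and −6.54, −6.87 and −6.00 in siAPE1, which overlapped (exact two-sided permutation test, p = 0.2). Over all tested miRNAs, 77.5% had ratios to miR-16-5p that did not overlap between the groups.

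Other common reference miRNAs gave other counts for the same signature. Of 11 that are used as references, 9 were tested, while miR-103a-3p and miR-484 were not. The splits cover miR-1246, miR-130b-3p and miR-146a-5p, which were above the background limit in 1 group only and whose calls support nothing. They also cover miR-660-5p, miR-543 and miR-376c-3p, which passed the filter only with their siSCR libraries and whose calls are no support either. As the only scale, miR-25-3p and miR-186-5p gave the same split as miR-16-5p (1 higher and 8 lower), where 80.8% and 72.2% of the 151 other tested miRNAs were called. Both held a nearly constant ratio to miR-16-5p (SD of the log2 ratio 0.0689 and 0.0780), so a like split follows from that and is no separate support. miR-423-5p and let-7a-5p gave 1 higher and 7 lower (43.7% and 58.9% of all called), miR-93-5p 1 and 6 (58.3%), and miR-26a-5p and miR-361-5p 1 and 5 (60.3% and 52.3%). With miR-191-5p the signature held 4 calls higher and 1 lower. There 84.1% of all tested miRNAs were called, 81.5% higher and 2.65% lower, so that the turn was shared by the tested miRNAs at large. miR-24-3p was at 0.00 ± 0.08 SE (edgeR adjusted p = 0.979). These reference scales were chosen after the data had been seen, and miR-186-5p lay near background, at 1.10 to 1.79 times the limit.

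**Figure D4:**
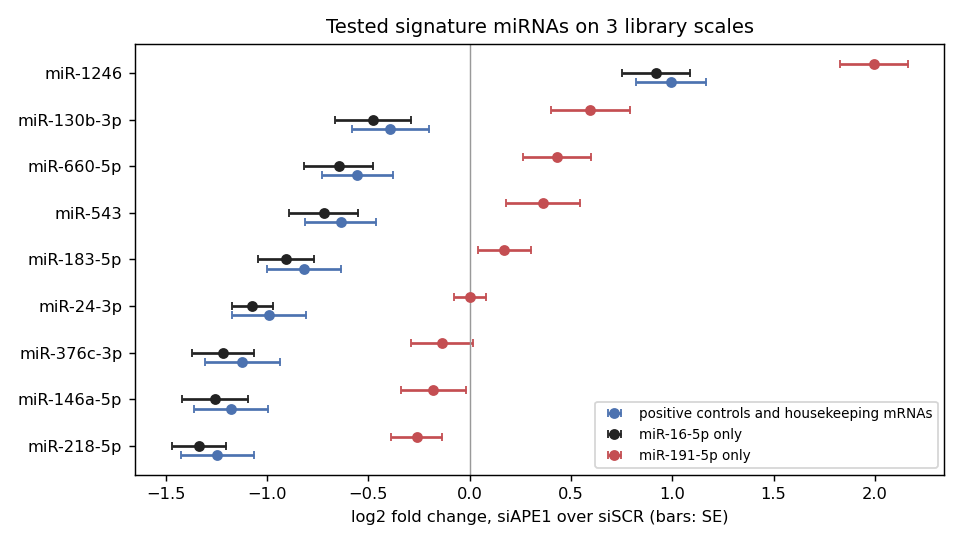
Log2 fold change of siAPE1 over siSCR (points, with SE as bars) of the 9 tested signature miRNAs with the scaling by controls and housekeeping mRNAs (blue), with miR-16-5p as the only scale (black) and with miR-191-5p as the only scale (red). miR-1246 was above background in no siSCR library, and miR-130b-3p and miR-146a-5p in no siAPE1 library. miR-660-5p, miR-543 and miR-376c-3p passed the filter only with their siSCR libraries. The blue and black points lie within 0.10 of each other, while the red points lie to their right by about the fall of miR-191-5p.

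miR-191-5p itself had raw counts of 4120, 5437 and 4222 in siSCR and of 1696, 1957 and 2012 in siAPE1. Its scaled level fell from 4161 ± 571 to 2094 ± 347 (mean ± SD, n = 3 per group; log2 fold change −0.99 ± 0.18 SE, edgeR adjusted p = 7.56e-07), and it was called lower under the 20 alternatives listed and with each of the other references as the only scale. Of the other references miR-26a-5p (−0.44, edgeR adjusted p = 0.0193) and miR-361-5p (−0.34, edgeR adjusted p = 0.0668) were also called lower. Neither was called with TMM, where their values were −0.08 and 0.02. The remaining 5 were not called and lay between −0.28 for miR-93-5p and 0.04 for miR-25-3p.

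Steadiness was measured as M, the mean over the other references of the SD of the log2 ratio to each over the 6 libraries, where a low value is a steady one. miR-16-5p had an M of 0.230 and ranked 6 of 9, between miR-25-3p (0.216) and miR-26a-5p (0.260). let-7a-5p was the lowest at 0.186 and miR-191-5p the highest at 0.494. With each library left out in turn, the M of miR-16-5p was 0.221 to 0.235 and its rank 5 to 7. Over all 152 tested miRNAs its M was 0.360, rank 85, against a median of 0.347, although the SD of its scaled log2 level over the 6 libraries, 0.169, ranked 14. It was thus among the steadier miRNAs against the housekeeping mRNAs and near the middle against the miRNAs themselves. Within siSCR alone it ranked 62 of 152 and within siAPE1 alone 25.

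**Figure D5:**
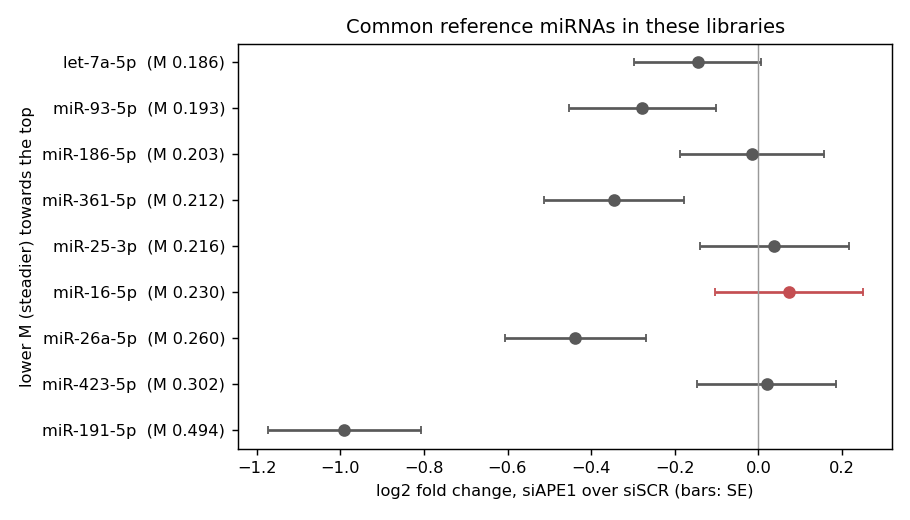
Log2 fold change of siAPE1 over siSCR (points, with SE as bars) of the 9 tested common reference miRNAs, ordered by M, which is given beside each name and is lowest at the top. miR-16-5p (red) lies at 0.07 with an M of 0.230, and miR-191-5p lies apart at −0.99 with an M of 0.494.

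The miRNAs whose pattern over the 6 libraries was most like that of miR-16-5p, by the SD of the log2 ratio of raw counts, were miR-25-3p (0.0689), miR-26b-5p (0.0740), miR-186-5p (0.0780), miR-128-3p (0.0891) and let-7c-5p (0.0892), against a median of 0.330 over the 151 other tested miRNAs. miR-25-3p had raw counts of 4001, 5170 and 4137 in siSCR and of 3764, 3771 and 3696 in siAPE1. At 0.04 ± 0.18 SE it was not called either (edgeR adjusted p = 0.867), which follows from its choice by likeness to miR-16-5p. None of these 5 shares the first 6 bases of the family seed. Within the family the same measure was 0.169 for miR-15b-5p, 0.251 for miR-15a-5p, 0.360 for miR-503-5p and 0.504 for miR-424-5p. When each library was left out in turn, 3 or 4 of the 5 were again among the most alike. The raw counts of miR-186-5p and miR-128-3p were only 76 to 110 and 79 to 116, near the background limit, and their ratios hold the background in them. With the negative-control mean subtracted their log2 fold changes were −0.20 and −0.28, against 0.07 for miR-16-5p. Those of miR-25-3p, miR-26b-5p and let-7c-5p were 0.04, −0.03 and −0.06.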

How the data were processed

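The deposited raw files of the 6 libraries held, per the labels and from their values, raw counts per probe (822 probes: 798 miRNAs, 5 housekeeping mRNAs and the positive, negative and spike-in controls), uncorrected by the authors. The authors also deposited a processed table, used here as a score. Over the 126 probes that reached 30 in all libraries, it was a straight line of the raw count, the same in all libraries (largest residual 0.640, slopes 0.761 to 1.26), so that it held no library scale. The software that made it is not given in the sources used here.

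R 4.3.3 was used. The library factor was the positive-control slope factor times a housekeeping factor, for which the negative-control mean was taken off the mRNAs and the median of their ratios used. The mRNAs were first divided by the positive-control factor, so that it nearly cancels in the product. The factors were 0.817 to 1.34. The 152 miRNAs above the limit were tested with the robust quasi-likelihood test of edgeR 4.0.16, two-sided, with Benjamini-Hochberg adjustment over all of them and a threshold of 0.1, as the study's q-value limit. The SE leans on a spread pooled over probes. NanoStringDiff, the study's tool, was not run. Ratios used exact permutation tests. Alternatives used TMM, DESeq2 1.42.0, limma 3.58.1 on log2(value + 1) of the processed table, other scales and filters, and libraries left out. The edgeR procedure was tested on simulated data.

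The members, relatives, signature, reference miRNAs and the 5 most like miR-16-5p were named by rule, and members and lists were chosen with earlier results of these data known. Replicate numbers were not used to pair the libraries.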

Additional observations from a re-analysis of the deposited data

How the results depend on the processing

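miR-424-5p and miR-503-5p kept their calls and directions under the 20 alternatives other than further reference miRNAs. miR-15a-5p kept its direction and stayed uncalled under 12 of 20, miR-15b-5p under 13 of 20 and miR-16-5p under 13 of 19. For miR-15b-5p and miR-16-5p all of these kept the scale of the housekeeping mRNAs, so their agreement was largely given in advance. Every other scale changed the call or the direction of both. miR-15a-5p was also unchanged with the total miRNA count. A shift of the scale moves all miRNAs alike, and the cause of the other changes was not tested. With TMM, DESeq2 and the 100 most abundant probes, miR-15a-5p was at 0.097, 0.086 and 0.095, miR-15b-5p at 0.21, 0.20 and 0.21, miR-16-5p at 0.44, 0.43 and 0.44, miR-93-5p at 0.091, 0.081 and 0.092, miR-361-5p at 0.023, 0.013 and 0.024, miR-186-5p at 0.35, 0.34 and 0.35, let-7a-5p at 0.23, 0.22 and 0.23, miR-128-3p at 0.30, 0.28 and 0.30, and let-7c-5p at 0.33, 0.32 and 0.33. With the total miRNA count the values were 0.064 for miR-15b-5p, 0.30 for miR-16-5p, 0.21 for miR-186-5p, 0.085 for let-7a-5p, 0.15 for miR-128-3p and 0.19 for let-7c-5p. With the positive controls only they were −0.68 for miR-15a-5p, −0.58 for miR-15b-5p, −0.33 for miR-16-5p, −0.34 for miR-423-5p, −0.37 for miR-25-3p and −0.37 for miR-26b-5p. With limma on the authors' processed values they were −0.55, −0.44, −0.20, −0.24, −0.24 and −0.29 in the same order (limma adjusted p = 0.0360, 0.0660 and 0.337 for the first 3). With miR-16-5p as the only scale miR-15a-5p was at −0.35, miR-15b-5p at −0.24, miR-423-5p at −0.020, miR-25-3p at −0.034 and miR-26b-5p at −0.039. The geometric mean of the housekeeping mRNAs put miR-186-5p at 0.014, and background subtraction put miR-423-5p at −0.0069 and miR-26b-5p at −0.034.

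With each library left out in turn, the values ranged from −0.41 to −0.098 for miR-15a-5p, −0.28 to −0.047 for miR-15b-5p, 0.0031 to 0.21 for miR-16-5p, −0.15 to 0.29 for miR-423-5p, −0.046 to 0.16 for miR-25-3p, −0.063 to 0.16 for miR-26b-5p, −0.095 to 0.12 for miR-186-5p, −0.24 to 0.00085 for let-7a-5p, −0.15 to 0.074 for miR-128-3p and −0.14 to 0.098 for let-7c-5p, and the calls over all tested miRNAs from 76 to 110. Without siSCR replicate 1 the miRNAs called higher were 8 in place of 15.

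Of all calls, 15 were higher and 77 lower; the split was 47 and 46 with TMM and with the 100 most abundant probes, 39 and 40 with DESeq2, 32 and 65 with the total miRNA count, 6 and 128 with the positive controls only, and 8 and 113 with limma on the processed values. With no filter 152 of 798 probes were called, 78 higher and 74 lower. Of the signature 3 miRNAs were called where all libraries had to exceed the limit, since only 3 could then be tested. With miR-191-5p as the only scale 5 were called, and with TMM, DESeq2 or the 100 most abundant probes 6. With the total miRNA count or the housekeeping geometric mean 8 were called. Of all tested miRNAs 55.3%, 84.1%, 61.2%, 52%, 61.2%, 63.8% and 61.8% were called in these settings, in the same order. With each library left out the signature calls were 8 or 9 on either scale, miR-16-5p or controls and housekeeping mRNAs.

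Same-numbered libraries did not deviate together (correlations of −0.59, −0.01 and −0.49), so the numbers were not used as pairs. With 3 libraries per group such correlations cannot exclude a pairing. A fit with the number as a replicate block called 116 miRNAs in place of 92 and called miR-15a-5p (−0.27, edgeR adjusted p = 0.0285). Depth limits miR-195-5p and miR-497-5p, for which only an upper bound was measured, and 3 libraries per group limit the rest.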
